A study of Mus musculus with 2 samples.

Results

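The genes described here are 10 mouse enzymes that modify and cross-link collagen: the prolyl 4-hydroxylase subunits P4ha1, P4ha2, P4ha3 and P4hb, the lysyl hydroxylases Plod1, Plod2 and Plod3, and the lysyl oxidases Lox, Loxl1 and Loxl2. They are 10 of the 24323 genes with a name on the array, and their 18 probes were found by the gene name printed beside each probe. The members were chosen from earlier results of these same arrays, in which several of them were higher in tooth, so their differences are given as a description. RNA came from wild-type mice, from tooth in the first group and from skin in the other, and the labels name no treatment. Both tissues were taken at postnatal day 0 per the labels, and the methods of the study call the tooth sample a tooth germ and name a day later. The methods give C57BL/6J as the wild-type strain of the study. There was 1 array for each tissue, both on the same slide, and the number of animals behind each array is not given in the sources used here. A single array per tissue leaves no measure of animal-to-animal variation, so no test was run and no difference has a replicate check.

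Collagen chains are modified in the endoplasmic reticulum before they fold. Prolyl 4-hydroxylase, a complex of catalytic α subunits and a shared β subunit, turns prolines into 4-hydroxyprolines, which hold the triple helix together at body temperature. Lysyl hydroxylases add hydroxyl groups to lysines, which then carry sugars and form the stable cross-links of mineralised tissues. Lysyl oxidases act on the secreted fibrils and turn lysines and hydroxylysines into the aldehydes from which cross-links grow. Dentin, laid down by odontoblasts, and dermis, laid down by fibroblasts, are both built on fibrillar collagen.

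The array carried a pair of probes for P4ha3, and they gave very unequal differences between the tissues. Their sequences are printed here because the largest value among the 10 genes rests on the first of them. Both are on the plus strand of the mm9 genome, each within a single stretch of genome as long as the probe, the first at chr7:107463120-107463179 and the second at chr7:107467431-107467490. In the first sequence capitals mark the longest run shared with a probe of any other gene, and in the second they mark the stop codon TGA on which it ends.
P4ha3 probe 1: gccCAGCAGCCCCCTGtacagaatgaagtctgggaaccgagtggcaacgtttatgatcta
P4ha3 probe 2: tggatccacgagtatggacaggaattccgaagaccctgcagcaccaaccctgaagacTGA
Per the file headers, probe 1 starts at base 1344 and probe 2 at base 1582 of the same P4ha3 transcript, which puts them 238 bases apart in the transcript and 4311 bases apart in the genome. Each probe has a GC content of 53.3%.

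Levels below are log2 processed signals minus the 75th percentile of their array, so a level of 0 stands at that percentile, and a difference is skin minus tooth, so a negative difference is a higher level in tooth. The value after ± is the error that the extraction software assigns to the spots, carried over to the difference. It covers the spots only, not dissection, labelling or animals. With 1 spot per member probe on each array, it is the software's own estimate and not a scatter between repeated spots. Across the 15 member probes measured on both arrays it ran from 0.20 to 0.26 (log2). The fold of a probe not well above background on 1 array is a bound and is written as at least N-fold. Every member probe had 1 spot on each array, and none of these spots was saturated or marked as an outlier.

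P4ha1 encodes a widely expressed catalytic α subunit of prolyl 4-hydroxylase. Its brighter probe (chr10:58835625-58835684) read a signal of 398 ± 40.1 for tooth and 78.2 ± 9.34 for skin. These signals correspond to levels of -0.10 for tooth and -1.82 for skin, which differ by -1.72 ± 0.23, or 3.29-fold higher in tooth. The tooth array was therefore the higher one for this subunit, with a difference of -1.13 under normexp background correction. The other P4ha1 probe exceeded background in tooth only, at a level of -3.34, and was at least 1.31-fold higher there.

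P4ha2 encodes a second catalytic α subunit, known for its place in chondrocytes, osteoblasts and other matrix-producing cells. Its only probe (chr11:53945032-53945091) stood at a level of 4.67 in tooth and 0.62 in skin. The difference of -4.05 ± 0.20 was 16.6-fold in favour of tooth. Of the 15271 named genes measured on both arrays, 89 had a lower difference. The 1398 named genes well above background in tooth only are outside this ranking and those given below for P4ha3 and Plod2.

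P4ha3 encodes the third catalytic α subunit. Probe 1, printed above, read 66444 ± 6644 in tooth and 213 ± 22.0 in skin, levels of 7.28 and -0.38. Its difference of -7.65 ± 0.21 was 201-fold higher in tooth, and 2 of the 15271 named genes measured on both arrays had a lower difference. Probe 2 read 79.8 ± 9.40 in tooth, a level of -2.42, and was not well above background in skin, where its measured level was -3.72. By probe 2 the gene was at least 2.46-fold higher in tooth. Both probes were higher on the tooth array, but by measured values the size of the difference differed by 6.35 (log2). Because probe 2 was dim in skin and its fold is a bound, this gap is an upper limit. The gaps of other genes below are by measured values too. Among the 3853 named genes with exactly 2 probes well above background on at least 1 array, the median gap was 0.31, the 90th percentile was 1.32, and 8 genes, P4ha3 included, had a gap of at least that of P4ha3. With the mean of its probes in place of the brighter one, P4ha3 had a difference of -4.48.

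The sequences of the P4ha3 probes were set against all other probes on the array. The longest run that probe 1 shares with a probe of another gene is the 13 bases in capitals, held by 1 probe of a long non-coding region on chromosome 6. That probe stood at 2.37 in tooth and -0.67 in skin, for a difference of -3.04. Probe 2 shares at most 13 bases as well, with a probe for 9130213A22Rik, which exceeded background in tooth only and had a measured difference of -0.73. The part of other transcripts in the signal of either probe was not tested.

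P4hb encodes protein disulphide isomerase, which serves as the β subunit of prolyl 4-hydroxylase and also folds many other secreted proteins. Its probe (chr11:120422076-120422135, minus strand) had levels of 5.24 in tooth and 3.95 in skin. The difference of -1.30 ± 0.20 was 2.46-fold in favour of tooth. Thus all 4 subunit genes read higher on the tooth array, with measured differences from -7.65 to -1.30 for the brightest probe of each.

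Among the lysyl hydroxylases, Plod1 acts mainly on lysines within the triple helix. Its brightest probe, which covers 1421 bases of genome and so crosses an intron (chr4:147290037-147291457, minus strand), had levels of -0.26 (tooth) and -1.41 (skin), a difference of -1.15 ± 0.22 (2.22-fold). A second probe gave -1.44 and -2.72, a difference of -1.28 ± 0.26 (2.43-fold). The remaining probe, designed on another transcript, stayed near background on both arrays. The probes measured on both arrays gave nearly the same difference, a gap of 0.13. Under normexp background correction the Plod1 difference was -0.78, short of 2-fold.

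Plod2 encodes the lysyl hydroxylase that acts on the telopeptides of collagen, the step behind the hydroxylysine-derived cross-links of bone and dentin. Its probe (chr9:92502483-92502542) read a signal of 5037 in tooth and 93.2 in skin. The levels were 3.56 and -1.57, and the difference of -5.12 ± 0.22 was 34.9-fold higher in tooth. Only 29 of the 15271 named genes measured on both arrays had a lower difference. Under normexp background correction the difference was -4.44. Because Plod2 has a single probe here, this value has no second probe beside it.

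Plod3 encodes a lysyl hydroxylase that also attaches sugars to hydroxylysine. Its probe (chr5:137472079-137472138) had levels of 2.65 in tooth and 1.52 in skin, for a difference of -1.13 ± 0.20 (2.19-fold). Plod3 and Plod1 lay closest to the 2-fold threshold from inside, and Loxl1 was the only member outside it.

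Lox encodes the founding lysyl oxidase, a copper enzyme that cross-links collagen and elastin. One probe had levels of 0.16 in tooth and -1.35 in skin, for a difference of -1.51 ± 0.21 (2.85-fold). The other probe had levels of 0.13 and -1.78, a difference of -1.91 ± 0.22 (3.76-fold). By both probes the tooth array was the higher one.

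Loxl1 encodes the lysyl oxidase best known for elastic fibre assembly. Its brighter probe (chr9:58138570-58138629, minus strand) had levels of 1.45 in tooth and 1.55 in skin, and its other probe -0.32 and -0.20. The differences were 0.09 ± 0.20 and 0.12 ± 0.21, both smaller than the spot error, and the sign of the first turned to -0.53 under spike-in scaling and to -0.15 under a median shift. Of the 10 genes, Loxl1 was the only one for which these arrays did not show a higher level in tooth by at least 2-fold.

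Loxl2 encodes a lysyl oxidase with scavenger receptor domains that acts on collagen IV and on fibrillar collagens. Its brightest probe (chr14:70095254-70095313) had levels of 3.60 in tooth and 1.17 in skin, for a difference of -2.42 ± 0.20 (5.37-fold). The other probes gave -1.83 ± 0.20 (3.55-fold) and -2.95 ± 0.21 (7.72-fold). All 3 probes placed the tooth array higher, over a range of 1.12 (log2) among themselves.

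**Figure D1:**
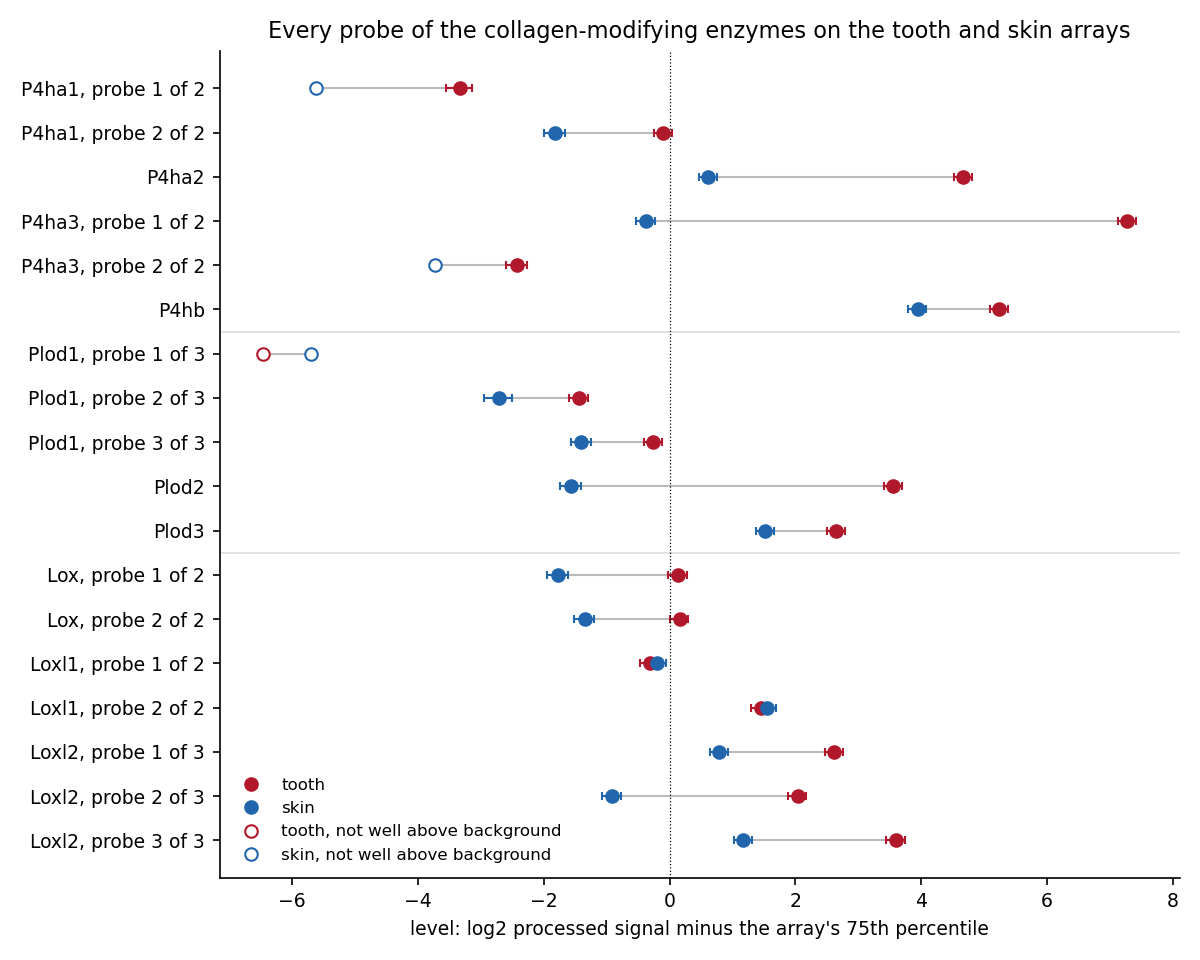
Level of each of the 18 probes on the tooth array (red) and the skin array (blue), as log2 processed signal minus the 75th percentile of the array. Horizontal bars are the software's spot error, open circles are probes not well above background on that array, and probes of a gene are numbered by their position in the transcript. The tooth level lies to the right of the skin level except for both Loxl1 probes and the dim first Plod1 probe, and probe 1 of P4ha3 spans 7.28 to -0.38 while probe 2 spans -2.42 to -3.72.

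By their brightest probes, 9 of the 10 genes were at least 2-fold higher in tooth, beside 15.5% of all 17409 named genes well above background on at least 1 array, and 0 were at least 2-fold higher in skin, beside 14.2%. All 10 genes were well above background on both arrays. Since these same values chose the members, nothing is read from the counts. The median difference of the 10 genes was -1.61, and that of all named genes measured was -0.04, with quartiles of -0.58 and 0.47. By family, the median was -2.89 for the 4 prolyl 4-hydroxylase genes, -1.15 for the 3 lysyl hydroxylases and -1.51 for the 3 lysyl oxidases. The first of these medians takes P4ha3 at -7.65 by its probe 1. With probe 2, at -1.30, it would be less negative, so its distance from the other families rests on that probe. By the brightest probes, P4ha3, Plod2 and Loxl2 had the most negative difference of their families, and P4ha2 took the place of P4ha3 if its probe 2 was used. In bulk tissue such as this, fewer cells of a type and less RNA per cell cannot be told apart.

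**Figure D2:**
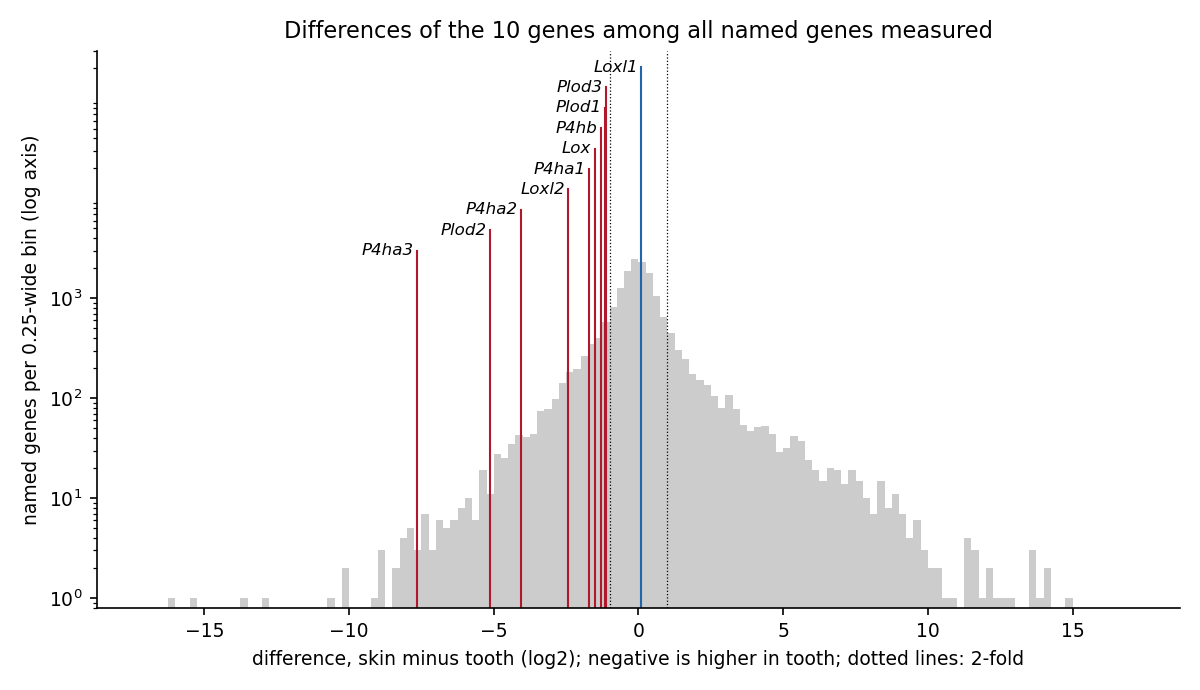
Histogram of the difference between the arrays (skin minus tooth, log2) for the 17409 named genes measured, in bins 0.25 wide on a logarithmic count axis, with the 10 enzymes drawn as labelled vertical lines of arbitrary height (red for negative, blue for positive). A gene dim on 1 array is placed at its measured value. P4ha3 at -7.65, Plod2 at -5.12 and P4ha2 at -4.05 lie in the thin left tail, and Loxl1 at 0.09 lies at the centre and moves to -0.53 under spike-in scaling and to -0.15 under a median shift.

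The other genes of collagen modification, folding and export were taken from 6 lists of known function with 30 genes in all. These lists were chosen with earlier results of these data known, so their counts are a description. Of the 30 genes, 28 were measured on 1 array or both, with a gene dim on 1 array taken at its measured value. By these values 20 were at least 2-fold higher in tooth and 1 in skin, beside 15.5% and 14.2% of all named genes measured. The 20 include Colgalt2, a gene too dim for a fold to be given. The 1 in skin, Atp7a, would fall within 2-fold under a median shift or spike-in scaling. The median of the 28 was -1.54. The collagen chaperones and export factors read higher in tooth throughout, 7 of 7 by at least 2-fold, with a median of -1.85. They were led by Fkbp14, a prolyl isomerase of the endoplasmic reticulum, at 4.01 in tooth and 1.34 in skin (-2.67, 6.36-fold). Serpinh1, the collagen-specific chaperone Hsp47, followed at 6.79 and 4.49 (-2.30, 4.93-fold). The second probe of Fkbp14 exceeded background in tooth only.

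The prolyl 3-hydroxylation complex modifies single prolines of the helix, and 4 of its 6 genes were at least 2-fold higher in tooth, with a median of -1.19. P3h3, which works with Plod1, had levels of 2.40 in tooth and -0.02 in skin (-2.42, 5.34-fold). P3h4, a scaffold of the same lysyl hydroxylase complex, had 4.84 and 3.25 (-1.59, 3.02-fold). The catalytic P3h1 had 2.35 in tooth and 2.78 in skin by its brighter probe, a difference of 0.43 that turns negative under spike-in scaling. The second P3h1 probe gave -3.45, so the probes disagreed in direction.

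The list of enzymes that glycosylate hydroxylysine, with the partners of lysyl hydroxylase, held 4 genes, of which 2 were measured on both arrays. Fkbp10, the chaperone that Plod2 needs for its activity, had levels of 6.41 in tooth and 2.82 in skin (-3.59, 12.1-fold). Colgalt1, a galactosyltransferase, had 2.02 and 1.03 (-0.99, 1.99-fold). Colgalt2 and the calcium-handling channel Tmem38b were well above background in tooth only, and both were so dim there, at -3.81 and -3.97, that no fold could be given.

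The proteins that trim procollagen outside the cell divided more. Of 8 genes, 7 were measured, 4 were at least 2-fold higher in tooth and 0 in skin, with a median of -1.77. With genes dim in skin left out, the 6 that remained had a median of -1.10, and normexp background correction gave -0.62. Pcolce, the enhancer of C-propeptide cleavage, had levels of 7.62 in tooth and 4.13 in skin (-3.49, 11.2-fold). Adamts2, which removes the N-propeptide, had 4.24 and 1.31 (-2.93, 7.62-fold), and its relative Adamts3 was at least 2.97-fold higher in tooth. Adamts14, of the same enzyme group, had 2.01 in tooth and 2.80 in skin, for a difference of 0.80. Tll1, a tolloid protease, gave 0.56 by its brighter probe, which turns negative under spike-in scaling, and -0.46 by the other.

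The remaining lysyl oxidases were both higher in tooth. Loxl4 had levels of 0.05 in tooth and -3.07 in skin (-3.12, 8.70-fold), and Loxl3 was at least 6.14-fold higher in tooth. In the list of cofactor supply, the vitamin C transporter Slc23a2 had -1.48 and -2.64 (-1.16, 2.23-fold higher in tooth). The copper pump Atp7a, which loads copper onto lysyl oxidases, had 1.03 in tooth and 2.05 in skin (1.02, 2.03-fold higher in skin). This difference would fall within 2-fold under a median shift or spike-in scaling. The other vitamin C transporter, Slc23a1, stayed near background in both tissues.

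Protein disulphide isomerases other than P4hb were higher in tooth in 4 of 6 cases by at least 2-fold, with a median of -1.23. Txndc5 had levels of 1.83 in tooth and 0.29 in skin (-1.54, 2.92-fold), and Pdia6 had 7.25 and 5.84 (-1.41, 2.65-fold). The related dioxygenases, which use the same cofactors on other substrates, showed no common direction. The membrane-bound P4htm was higher in tooth, at -0.58 against -2.45 (-1.87, 3.66-fold), and the oxygen sensor Egln3 was higher in skin, at 1.33 against -3.60 in tooth (4.93, 30.4-fold). The oxygen sensors Egln1 and Egln2 had differences of 0.21 and -0.11, of which the first turns negative under spike-in scaling.

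The substrates of the 10 enzymes were listed as 9 fibrillar collagen genes and elastin. Of the 10, 6 were at least 2-fold higher in tooth and 1 in skin, with a median of -1.92. Col11a1 had levels of 2.72 in tooth and -2.64 in skin (-5.36, 41.1-fold), and Col11a2 had 2.43 and -2.53 (-4.95, 31.0-fold). Col2a1, the collagen of cartilage, was measured in tooth only and was at least 43.3-fold higher there. Eln, the elastin gene, had -2.12 in tooth and 0.43 in skin (2.55, 5.86-fold higher in skin), and Col5a3 had a difference of 0.53, which turns negative under spike-in scaling. Of the same list, 3 more genes are named outside the naming rule and were picked after their values were seen, as the main collagens of dentin and dermis. Col1a1 had levels of 8.85 in tooth and 5.68 in skin (-3.17, 8.97-fold), and Col1a2 had 9.51 and 7.01 (-2.50, 5.65-fold). Col3a1, which is abundant in dermis, had 5.77 and 5.90, a difference of 0.13 that turns negative under spike-in scaling.

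**Figure D3:**
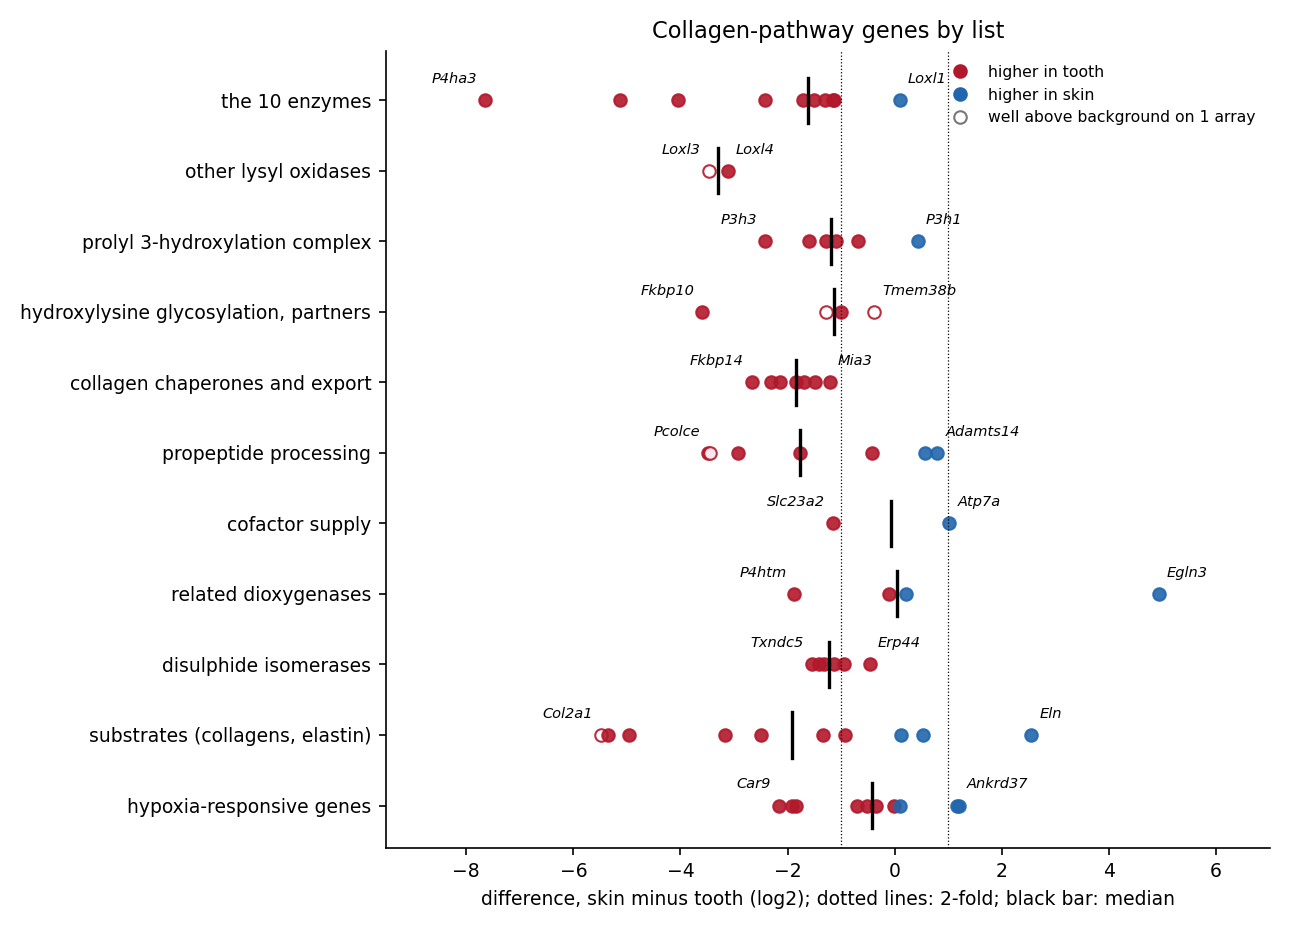
Difference between the arrays (skin minus tooth, log2) for each gene of the collagen-pathway lists, 1 point per gene by its brightest probe, red for higher in tooth and blue for higher in skin. Open circles are genes well above background on 1 array only at their measured value, black bars are list medians, and the lowest and highest gene of each list is named. All 7 chaperone and export genes lie left of the 2-fold line, the substrates run from Col2a1 to Eln, and points between 0 and 0.62 turn negative under spike-in scaling.

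Several collagen hydroxylase genes are known targets of the hypoxia response. As a list of its own, 10 other hypoxia-responsive genes had a median of -0.43, with 3 at least 2-fold higher in tooth and 2 in skin. Car9, a carbonic anhydrase, had levels of -0.80 in tooth and -2.97 in skin (-2.17, 4.49-fold), and Ndrg1 had 5.30 and 3.39 (-1.91, 3.76-fold). In the other direction, Ankrd37 had -0.52 in tooth and 0.68 in skin (1.20, 2.29-fold higher in skin), and Adm, the adrenomedullin gene, had -2.26 and -1.10 (1.16, 2.23-fold higher in skin). Spike-in scaling, which moves every difference toward tooth, would bring both of these genes within 2-fold. The list thus held genes higher in each tissue, and its part in the values of the 10 enzymes was not tested.

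RefSeq promoters of assembly GRCm38.p6 were at hand for 6 of the 10 genes, P4ha1, P4ha2, P4ha3, P4hb, Plod1 and Plod3. The 250 bases before each start were searched on both strands for 3 motifs, which do not contain one another. The core of hypoxia response elements in the form ACGTG was found in 4 of the 6 promoters and in 16.6% of the 32851 promoters of the table. The other common form of that core, GCGTG, was present in 5 of the 6 promoters and in 28.2% of the table. The core bound by Runx factors, TGTGGT, was found in 1 of the 6 and in 14.0% of the table. The 6 promoters had GC contents from 55.6% (Plod3) to 70% (P4ha2), and the table was not matched to them for GC. No enrichment is therefore read from these shares. The 2 promoters below belong to genes that both read over 10-fold higher in tooth by their brightest probe and hold all and none of these motifs, with each match in capitals. The promoter of P4ha2 lies at chr11:54100674-54100923 on the plus strand, and that of P4ha3 at chr7:100285270-100285519 on the plus strand.
P4ha2 promoter: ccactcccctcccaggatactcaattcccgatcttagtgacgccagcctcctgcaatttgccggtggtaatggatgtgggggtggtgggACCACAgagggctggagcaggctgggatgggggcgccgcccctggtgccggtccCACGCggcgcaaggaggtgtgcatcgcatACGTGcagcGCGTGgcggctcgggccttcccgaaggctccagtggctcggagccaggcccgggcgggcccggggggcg
P4ha3 promoter: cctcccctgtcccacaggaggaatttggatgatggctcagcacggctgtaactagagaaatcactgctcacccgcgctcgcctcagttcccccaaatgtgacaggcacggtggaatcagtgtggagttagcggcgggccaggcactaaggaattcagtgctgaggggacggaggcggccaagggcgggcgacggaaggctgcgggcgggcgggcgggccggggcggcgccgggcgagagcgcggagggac
A match describes the letters of the promoter and is not a binding site, and the absence of a match says only that these letters are not in this window.

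The dissected tissues held different cell types, and markers of several of them differed between the arrays beside the enzymes. Of 8 odontoblast and osteoblast markers, 7 were at least 2-fold higher in tooth and 0 in skin, with a median of -7.70, and their summed linear level, in units of the 75th percentile, was 400 in tooth and 1.18 in skin. Dspp, the precursor of the main non-collagenous proteins of dentin, was at least 3087-fold higher in tooth. Bglap, osteocalcin, had levels of 5.42 in tooth and -2.54 in skin (-7.96) by its brighter probe, and Ibsp, bone sialoprotein, had 5.94 and -1.49 (-7.43). The other Bglap probe gave a measured difference of -3.91, so the probes of Bglap disagreed in size. On the skin array 4 of the 8 markers, Dspp, Dmp1, Sp7 and Phex, were not well above background. The part of mineralising cells in the values of the 10 enzymes was not tested.

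The tooth array carried the markers of enamel-forming cells too. All 6 ameloblast markers were at least 2-fold higher in tooth, with a summed level of 2163 in tooth and 0.27 in skin. Amelx, amelogenin, was at least 16383-fold higher there, and Klk4 was 60.6-fold higher and the only ameloblast marker well above background in skin. Of 6 dental mesenchyme markers, 5 were at least 2-fold higher in tooth. Among those measured on both arrays Dlx2 (-4.00) and Dlx1 (-3.46) had the lowest differences, and Barx1 had a bound of at least 16.9-fold toward tooth. Lhx6 had a difference of 0.09 by its brightest probe, which turns negative under spike-in scaling. Another Lhx6 probe above background gave a measured difference of -4.50, so the probes of this gene disagreed.

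Dermal fibroblast markers were mixed, with 2 of 6 at least 2-fold higher in tooth and 1 in skin, a median of -0.17, and summed levels of 250 in tooth and 98.2 in skin. Lum, lumican, was higher in tooth (-2.97) and so was Pdgfra (-2.43), whereas Dpt, dermatopontin, was at least 18.7-fold higher in skin and not well above background in tooth. Twist2 had a difference of 0.81, and Col14a1 gave 0.58 and -0.76 by its probes, the first of which turns negative under spike-in scaling.

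The skin array carried the markers of its label. Epidermis markers were at least 2-fold higher in skin in 5 of 6 cases, with a summed level of 4783 in skin and 528 in tooth. Flg, filaggrin, had a difference of 12.89 and Krt1 of 9.93. All 6 muscle markers and all 5 fat markers were also at least 2-fold higher in skin, with medians of 3.09 and 4.07. Ckm (3.38) and Myh3 (3.35) led the muscle genes measured on both arrays, with Myog at least 3.49-fold higher, and Fabp4 (4.07) and Lpl (1.54) the fat genes, with Adipoq at least 39.5-fold higher. The summed muscle level was 30.8 in skin and 3.87 in tooth, and the summed fat level 16.4 and 1.80.

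Of 5 vessel markers, 3 were at least 2-fold higher in tooth and 0 in skin, with summed levels of 94.0 in tooth and 54.0 in skin. Acta2 (-2.74) and Cdh5 (-2.70) led toward tooth. Pecam1 (0.50) and, by its brighter probe, Kdr (0.43) were within 2-fold and turn negative under spike-in scaling. The other Kdr probe gave a measured difference of -2.19, so the probes of Kdr disagreed in direction. Of 6 cartilage markers, 5 were measured, 2 were at least 2-fold higher in tooth, Col2a1 and Acan (-1.36), and 1 in skin, Comp (1.25). Col9a1 had a difference of 0.70 by its brighter probe, and its other probe exceeded background in tooth only, with a measured difference of -2.62. Their summed levels were 7.08 in tooth and 4.86 in skin. The part of these cell types in the values of the 10 enzymes was not tested.

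**Figure D4:**
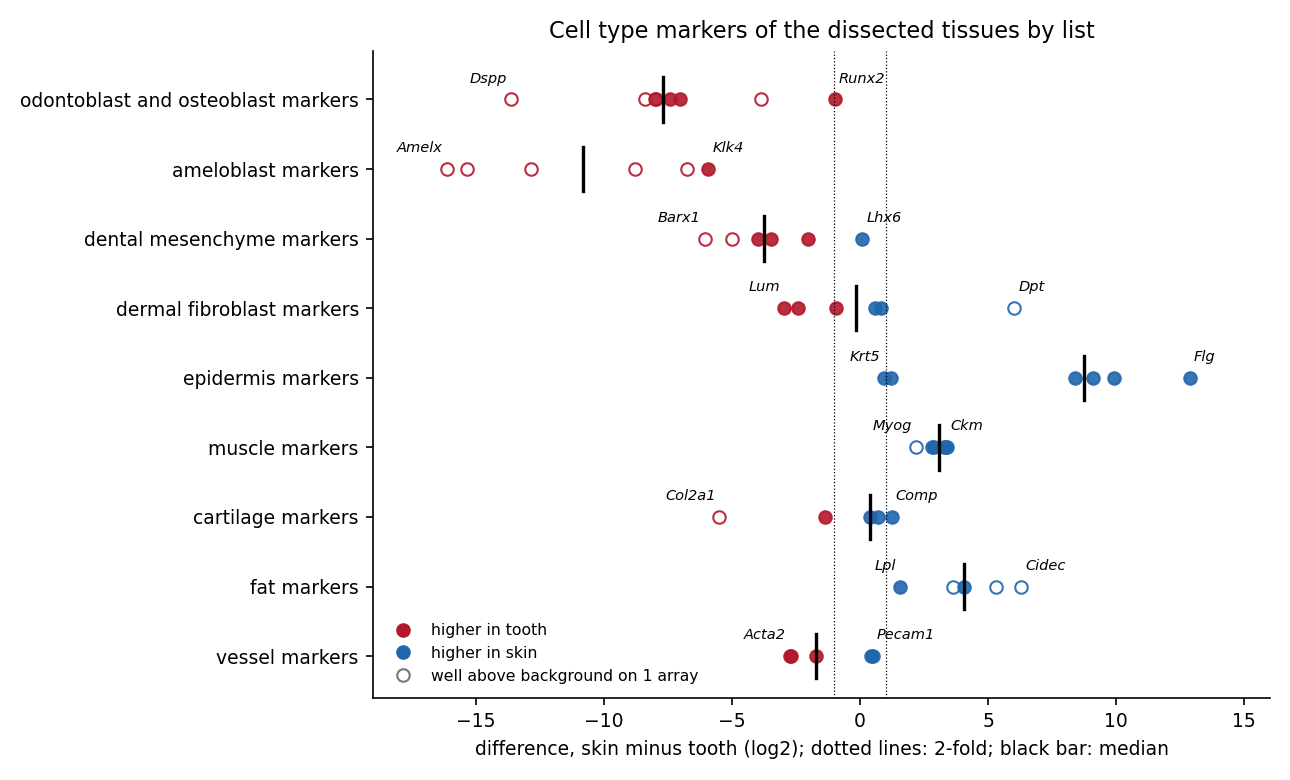
Difference between the arrays (skin minus tooth, log2) for each gene of 9 marker lists, 1 point per gene by its brightest probe, red for higher in tooth and blue for higher in skin, with open circles for genes well above background on 1 array only. Black bars are list medians. Odontoblast and osteoblast (-7.70) and ameloblast (-10.81) medians lie far to the left, epidermis (8.75) far to the right, dermal fibroblast markers spread across 0, and points between 0 and 0.62 turn negative under spike-in scaling.

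Of the 55675 non-control probes with a value on both arrays, 56.7% were well above background in tooth and 52.5% in skin, and the 75th percentile of the signal was 428 and 276, a ratio of 1.55. Scaling to the spike-in transcripts instead would move every difference by -0.62, and a median shift would move it by -0.25, toward tooth in both cases. Under spike-in scaling the same 9 enzymes had differences from -8.28 for P4ha3 to -1.76 for Plod3, and Loxl1 stood at -0.53. That these 9 stayed at least 2-fold higher in tooth was certain beforehand, because the shift moves every difference toward tooth. The share of all named genes past 2-fold under this shift is not given here, so nothing is read from the count.

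**Figure D5:**
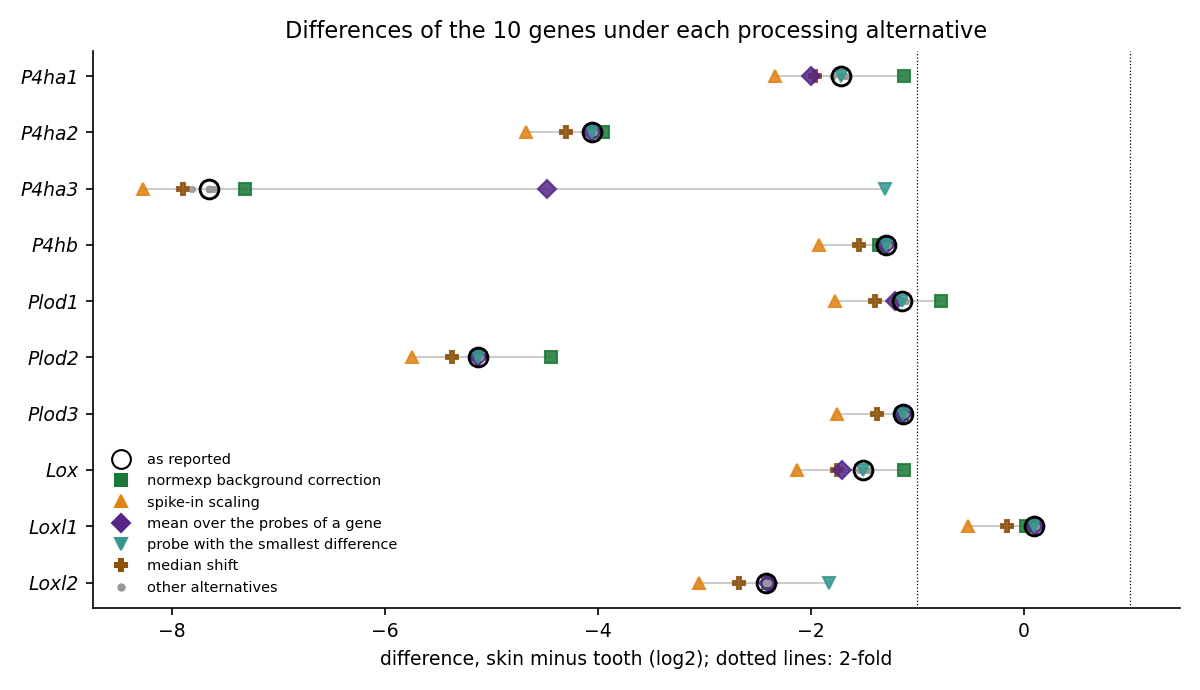
Difference (skin minus tooth, log2) of each of the 10 genes as reported (open black circle) and under each of 13 processing alternatives, 5 of them in colour and the others as grey dots. P4ha3 ranges from -8.28 to -1.30 with the high end given by its probe 2, Plod1 reaches -0.78 under normexp background correction, and Loxl1 changes sign under spike-in scaling (-0.53) and a median shift (-0.15).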

How the data were processed

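Total RNA was labelled with cyanine-3 and hybridised to 1 Agilent mouse array per tissue. Per the file headers, Agilent Feature Extraction (version 10.7.3.1) produced the deposited intensities, background-subtracted and detrended within each array by the software. The authors also deposited a table of ratios, each the processed intensity divided by 1 factor per array (431 for tooth, 275 for skin), used as an alternative. The methods of the study name GeneSpring, removal of very low signals and a percentile shift.

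Spots of a probe were averaged as log2, and the 75th percentile over non-control probes was subtracted (Python 3.11.15, pandas 2.3.3, numpy 2.4.6). A probe counted as measured when over 50% of its spots were well above background. The probe with the highest mean level stood for its gene. For a bound, the bright level was set against the lowest level well above background on the dim array (-4.52 in tooth, -3.73 in skin) or the dim value itself, if higher. The signal error is the extraction software's own. Normexp correction used limma 3.58.1 in R 4.3.3. Names followed the array accession matched to RefSeq (27234 of 33182 named probes), and the probe coordinates are mm9, as the files give them. No annotation of that build was used, so exons and UTRs under the probes were not analysed here.

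The members, the lists and the 2-fold threshold were chosen with earlier results of these data known. Named in the text are every probe of the members and, from each other list, the 2 largest differences in each direction measured on both arrays, the largest bound in each direction and every gene of a list of up to 4. Col1a1, Col1a2 and Col3a1 were named in addition, after their values were seen. The steps were tested on simulated data. With 1 array per tissue, the array number limits the precision, and 15 alternatives were tried, whose effect the closing section gives.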

Additional observations from a re-analysis of the deposited data

How the results depend on the processing

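No paired analysis was possible because each tissue had 1 array, and for the same reason no replicate could be left out. A value was taken as moved when it changed by more than 0.12 (log2), the SD of a difference from the scatter of repeated spots, which leaves out variation between animals. The count of 9 members at least 2-fold higher in tooth was 8 under normexp background correction, without Plod1, and 4 at a 4-fold threshold. The share of all named genes is not given for the alternative settings or thresholds, so nothing is read from the member counts under them. The median of the members (-1.61) became -1.25 under normexp, -1.86 under a median shift, -2.24 under spike-in scaling, -1.85 with the mean of a gene's probes and -1.41 with the probe of the smallest difference, an alternative chosen after seeing the data. In the same order of normexp, median shift and spike-in scaling, the chaperone median was -1.61, -2.10 and -2.47, and the propeptide processing median -0.62, -2.02 and -2.39. The propeptide median was also -1.10 without a filter on dim probes and -1.10 over genes measured on both arrays, and -1.57 with dim values at their bound. The prolyl 3-hydroxylation median was -1.43 under a median shift, -1.81 under spike-in scaling and -1.40 with the mean of probes. The substrate median was -2.17 under a median shift, -2.06 under quantile normalization, -2.54 under spike-in scaling and -1.34 over genes measured on both arrays. Loxl1 (0.09) changed sign to -0.53 under spike-in scaling and to -0.15 under a median shift. The other 9 members kept their direction under all 13 alternatives that give a difference per gene. Many of these could not have changed it. Spike-in scaling and the median shift move every difference toward tooth. The settings for dim probes left the member values as they were, because every member was well above background on both arrays. Lox, P4ha1 and Plod2 reached -1.12, -1.13 and -4.44 under normexp, and P4ha3 -4.48 with the mean of its probes and -1.30 by its probe 2. The 75th percentile over probes detected on both arrays, detection by positive and significant signal, the deposited value table and kept outlier spots moved none of these medians or member differences by as much as 0.12 and left both counts as they were, and a 1.5-fold threshold left the counts at 9 and 0. The causes of these shifts were not tested, apart from the scalings, which move every difference by the same amount (-0.62 for spike-ins and -0.25 for the median). Dim skin signals limit the folds of the second P4ha1 and P4ha3 probes to bounds.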
